A study of Homo sapiens with 16 samples.

Results

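Apoptosis genes of the BCL2 family were followed in 2 estrogen-responsive cancer cell lines: the survival members BCL2, BCL2L1 (BCL-XL) and MCL1, the pore-forming effector BAK1, and the BH3-only members BCL2L11 (BIM), BIK, BMF, BBC3 (PUMA), PMAIP1 (NOXA) and HRK. These 10 genes were taken by name from the 26364 genes of the bulk RNA-seq count tables, and all 10 were detected well enough to be tested in each comparison. Ishikawa cells, from a human endometrial adenocarcinoma, and T-47D cells, from a human breast ductal carcinoma, were held in hormone-deprived medium for 3 days according to the labels (the study's methods give a longer time) and then given 10 nM of 17β-estradiol (E2), with 0 h (vehicle) as the control for exposures of 2, 4 and 8 h. The labels name no genetic change, each tissue is represented by 1 line, and there were 2 replicates per line and time point, hence 16 libraries. The labels do not say whether replicates were separate cultures, so the spread between them may be technical.

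Proteins of this family decide whether the outer mitochondrial membrane is opened. Survival proteins hold the effectors BAK1 and BAX in check, BH3-only proteins bind and neutralize the survival proteins or activate the effectors directly, and opening of the membrane releases cytochrome c, which starts the caspase cascade. In hormone-dependent cells, estrogen is known as a survival signal, and several BH3-only genes are regulated at the level of transcription by stress, growth factor and hormone signalling.

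The libraries held 41177912 to 64148903 counts each. The E2 response genes PGR and GREB1 rose in both lines, by 3.75 and 1.65 (log2 fold change) after 8 h in the Ishikawa line and by 1.09 and 2.15 in T-47D cells. They belong to a list of 7 such genes, of which 6 were tested in the Ishikawa line. After 8 h, 4 of these were higher and 1 was lower there at an adjusted p under 0.05 (edgeR). In T-47D cells all 7 were higher. Of all genes tested, 22.1% and 29.7% passed in the 2 lines. All 5 epithelial markers examined were above 1 CPM (counts per 1000000 counts of the library, on TMM-scaled sizes) in both lines, and all 6 endometrial markers were above it in Ishikawa cells, against 1 of 6 in T-47D cells. Of 6 luminal breast markers, 5 were above 1 CPM in T-47D cells (ANKRD30A was not) and 3 in Ishikawa cells. Of 4 immune genes, CD68 alone was above 1 CPM in both lines, PTPRC, CD3E and CD14 were below it, and the list summed to 1.89 to 2.52 CPM per library in the Ishikawa line and 2.38 to 4.06 in T-47D. Of 3 endothelial genes, VWF was above 1 CPM in Ishikawa cells (list sum 5.06 to 8.36 CPM) and none in T-47D cells (0.0408 to 0.214), and PECAM1 and CDH5 were below it in both. Of 6 fibroblast genes, COL1A1 and COL3A1 were above 1 CPM in Ishikawa cells (list sum 154 to 277 CPM) and COL1A1 and LUM in T-47D cells (77.7 to 103). The Ishikawa libraries labelled 4 h and 8 h resembled each other: 2 of 15787 genes differed between them at an adjusted p under 0.05 (edgeR, 554 at an unadjusted p under 0.05, and 2 by DESeq2), compared with 533 of 15594 in T-47D cells (2533 unadjusted, 712 by DESeq2). Late results in Ishikawa cells are therefore also given with the 4 libraries pooled.

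The 5′ flanks of 4 BH3-only genes are shown first. As described below, BMF and BBC3 fell with E2 in both lines and PMAIP1 rose in Ishikawa cells. After 8 h BCL2L11 was higher in Ishikawa cells and lower in T-47D cells, both narrow calls. BCL2L1, BIK and MCL1 also had changes that passed, and their flanks are not shown. Each sequence is the 250 bases before the RefSeq start site on GRCh38.p14, written 5′ to 3′ on the strand of the gene. BMF is at chr15:40108880-40109129 on the minus strand, BBC3 at chr19:47232668-47232917 on the minus strand, PMAIP1 at chr18:59899746-59899995 on the plus strand and BCL2L11 at chr2:111120664-111120913 on the plus strand. Capitals mark matches on either strand to the estrogen response element (ERE) half-site GGTCA, the GC box GGGCGG, the forkhead motif GTAAACA, the E-box CACGTG or the AP-1 motif TGACTCA.
BMF: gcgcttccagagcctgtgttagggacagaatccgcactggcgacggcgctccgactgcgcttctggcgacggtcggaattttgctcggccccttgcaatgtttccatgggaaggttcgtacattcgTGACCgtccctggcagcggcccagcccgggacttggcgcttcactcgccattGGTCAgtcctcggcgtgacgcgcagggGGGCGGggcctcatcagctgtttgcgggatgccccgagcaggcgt
BBC3: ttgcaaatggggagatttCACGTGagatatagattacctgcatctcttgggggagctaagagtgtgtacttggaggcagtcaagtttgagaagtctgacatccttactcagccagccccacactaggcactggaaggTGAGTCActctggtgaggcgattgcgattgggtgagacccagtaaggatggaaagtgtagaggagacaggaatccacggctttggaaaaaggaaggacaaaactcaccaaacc
PMAIP1: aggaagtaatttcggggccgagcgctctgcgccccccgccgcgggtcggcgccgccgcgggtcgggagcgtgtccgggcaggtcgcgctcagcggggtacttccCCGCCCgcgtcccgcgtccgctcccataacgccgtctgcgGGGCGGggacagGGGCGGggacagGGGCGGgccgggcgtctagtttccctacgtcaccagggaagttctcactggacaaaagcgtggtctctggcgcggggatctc
BCL2L11: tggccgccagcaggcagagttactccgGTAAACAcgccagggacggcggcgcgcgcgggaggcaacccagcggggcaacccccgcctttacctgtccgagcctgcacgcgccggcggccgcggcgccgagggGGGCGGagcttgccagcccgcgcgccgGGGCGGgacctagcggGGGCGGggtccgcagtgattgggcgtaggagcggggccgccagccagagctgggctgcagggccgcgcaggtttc

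The BMF flank held 2 half-sites, starting 124 and 72 bases before the start site, and a GC box 45 bases before it. A half-site occurred in 37.4% of the 35116 RefSeq promoters scanned over 250 bases before and 50 after the start, and a GC box in 45.0%. In BBC3 an E-box began 232 bases and an AP-1 match 113 bases before the start site, motifs found in 7.26% and 4.95% of promoters. PMAIP1 held 4 GC boxes and BCL2L11 held 3, together with a forkhead match 223 bases before the start, a motif present in 3.42% of promoters. The full ERE GGTCANNNTGACC, which contains the half-site at either end, occurred in 0.0570% of promoters and in none of the promoters of the 8 members with an entry. MCL1 and BIK had no entry. BMF and BCL2L1 each had a second listed start site, and the second BMF promoter also held 1 half-site. A p53 half-site was also scanned for and occurred in 6.63% of promoters. It had 1 match in the BAK1 promoter and none in those of the other members with an entry, BBC3 and PMAIP1 included. These matches describe letters in the windows and do not show binding.

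Before E2, the lines differed in nearly every member (edgeR quasi-likelihood test over all 16 libraries, Benjamini-Hochberg adjusted p under 0.05 over 17090 genes). Of the 10 genes, 9 passed, 3 higher and 6 lower in T-47D cells, but 81.9% of all genes tested passed as well. T-47D cells had more BCL2L1 and MCL1 transcript and more BMF, and less of BCL2, BAK1, BCL2L11, BBC3, PMAIP1 and HRK. The largest gaps were those of PMAIP1, 14.5-fold lower in T-47D cells, BCL2, 6.62-fold lower, and HRK, 4.79-fold lower.

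Among survival genes, BCL2, the founding member of the family (chr18:60790579-60987361 on hg19, minus strand), stood at 42.2 and 40.7 CPM in the 0-h Ishikawa libraries and at 6.33 and 6.19 CPM in the T-47D libraries. The difference in its log2 level, T-47D minus Ishikawa, was -2.73 ± 0.09 (SE, adjusted p = 2.78e-16, edgeR). The opposite order held for BCL2L1 (chr20:30252255-30311792, minus strand), whose main product BCL-XL blocks BAK1 and BAX, at 78.8 and 88.0 CPM in the Ishikawa line and 201 and 207 CPM in T-47D (log2 difference 1.29 ± 0.06, adjusted p = 1.19e-14, edgeR). MCL1 (chr1:150533371-150552214, minus strand), a survival protein with a short half-life, was likewise higher in T-47D cells, at 452 and 455 against 249 and 220 CPM (0.95 ± 0.06, adjusted p = 2.34e-12, edgeR). The libraries of the 2 lines did not overlap for any of the 3 genes. Gene counts do not separate the splice forms of BCL2L1 or MCL1, some of which act against survival.

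To compare genes with each other, levels were divided by exon length (RPKM, CPM per kilobase of exon, computed here). In Ishikawa cells at 0 h, MCL1 was the most abundant member at 37.7 ± 3.30 RPKM (SD, n = 2), followed by BAK1 at 21.5 ± 0.788 and BCL2L1 at 19.9 ± 1.55, whose libraries overlapped. PMAIP1 followed at 6.13 ± 0.511 RPKM. BMF, BCL2L11, BBC3, BIK and BCL2 lay between 3.91 and 3.29 RPKM, and each overlapped its neighbour in this order. HRK, best known from neurons, was lowest at 0.294 ± 0.00170 RPKM. In T-47D cells the order was MCL1 (72.8 RPKM), BCL2L1 (48.7), BAK1 (14.6), BMF (7.34), BIK (4.22), BCL2L11 (2.06), BBC3 (1.77), BCL2 (0.496), PMAIP1 (0.424) and HRK (0.0610), with overlap between BCL2L11 and BBC3 and between BCL2 and PMAIP1. Among the 6 BH3-only members ranked here, BMF was thus the most abundant transcript in T-47D cells and PMAIP1 in Ishikawa cells. Other BH3-only genes, such as BID, were not part of this ranking. With the length of the longest transcript instead, BCL2L1 stood above BAK1 in Ishikawa cells and BBC3 above BCL2L11 in T-47D cells. BBC3 (5.88 RPKM) and BCL2 (5.56) then also stood above BCL2L11 (4.73) and BMF (4.54) in Ishikawa cells, while MCL1 stayed first and HRK last in both.

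**Figure D1:**
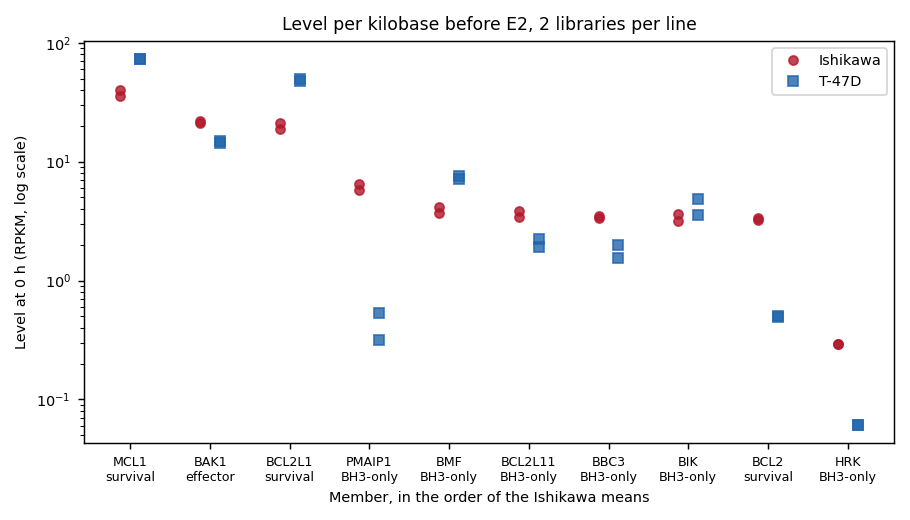
Level of the 10 members at 0 h in RPKM on a log axis, with 1 point per library (circles, Ishikawa; squares, T-47D). MCL1 is highest and HRK lowest in both lines, and PMAIP1, BCL2 and HRK sit lower in T-47D cells by 14.5-fold, 6.62-fold and 4.79-fold.

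In Ishikawa cells, E2 changed few survival and several BH3-only genes. At 2 h, 4 of the 10 members passed an adjusted p of 0.05 (edgeR quasi-likelihood test within the line) against 4.35% of all genes tested, and BMF, BBC3 and BCL2L1 fell while PMAIP1 rose. The same 4 genes passed after 4 h, against 14.3% of all genes, and after 8 h they were joined by BCL2L11, which rose, making 5 against 22.1%. With the 4 h and 8 h libraries as 1 group, 6 members passed against 25.7%, and the sixth was HRK. No member differed between 8 h and 4 h in these cells, where the lowest unadjusted p was 0.0390 (PMAIP1).

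In T-47D cells, all changes that passed were decreases. BIK alone passed after 2 h, when 9.30% of all genes did. At 4 h, BIK, BMF, BBC3, BCL2L1 and MCL1 fell, 5 of 10 members, while 21.5% of genes passed in either direction and 10.4% passed as lower. The 5 members that fell after 8 h were BIK, BMF, BBC3, BCL2L1 and BCL2L11, beside 29.7% in either direction and 14.3% lower. All time points of a line are set against the same pair of 0-h libraries, so these comparisons are not independent of each other.

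**Figure D2:**
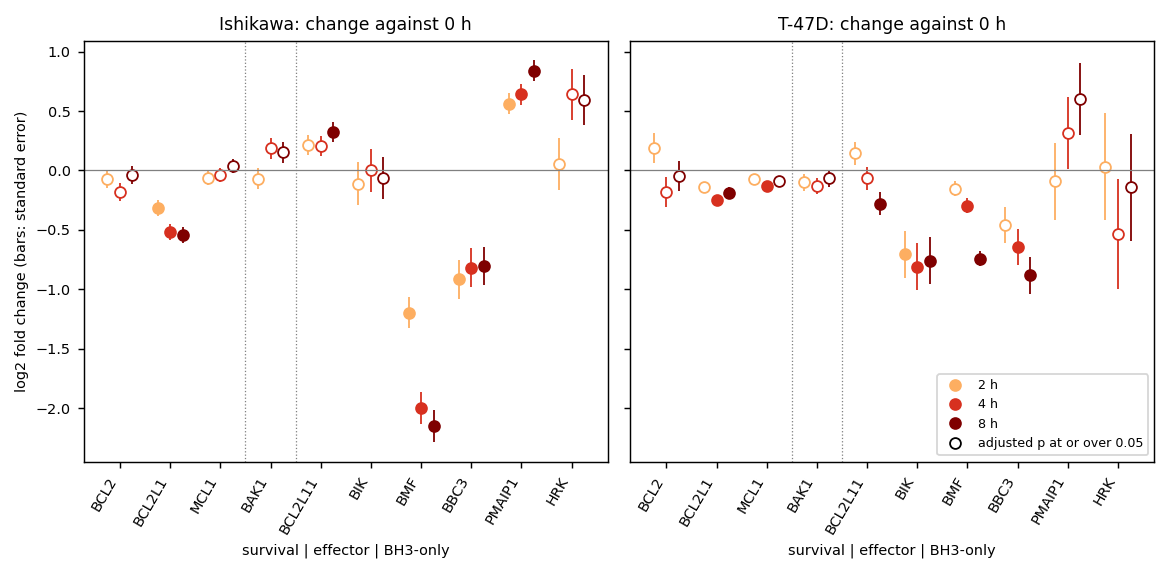
Log2 fold change against 0 h of each member at 2, 4 and 8 h in Ishikawa (left) and T-47D cells (right), with standard errors. Filled points have an adjusted p under 0.05 and open points do not. BMF in Ishikawa cells shows the deepest decrease, to -2.15, and no T-47D gene has a filled point above 0.

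BMF, a BH3-only protein held at the cytoskeleton until released by stress (chr15:40380091-40401093 on hg19, minus strand), had the largest change of the family. Its level in the 2 Ishikawa libraries was 22.4 and 20.2 CPM at 0 h, 8.85 and 9.63 CPM after 2 h, 4.93 and 5.66 CPM after 4 h, and 5.41 and 4.13 CPM after 8 h. Every treated library lay below both 0-h libraries, and the 2-h libraries lay above all later ones. The log2 fold change was -1.20 ± 0.13 (SE) after 2 h (adjusted p = 1.83e-05, edgeR), -2.00 ± 0.14 after 4 h (9.66e-08) and -2.15 ± 0.13 after 8 h (3.61e-08), a 4.45-fold reduction after 8 h. Pooling the late libraries gave -2.08 ± 0.11. BMF shares 461 exonic bases with the antisense gene BMF-AS1, which is not among the counted genes under that name. If counting ignored strand, its reads from the shared stretch may have been counted as BMF, which was not tested.

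In T-47D cells, BMF began higher and fell later and less. The libraries held 41.0 and 38.9 CPM at 0 h, 35.7 and 36.6 CPM after 2 h, 32.6 and 32.7 CPM after 4 h, and 24.6 and 23.3 CPM after 8 h. Here none of the time points overlapped, and each was below the one before. The log2 fold change was -0.15 ± 0.06 after 2 h, which did not pass (adjusted p = 0.145, edgeR), -0.30 ± 0.06 after 4 h (0.00201) and -0.74 ± 0.06 after 8 h (8.63e-08). Between 4 h and 8 h the level dropped by a further 0.44 on the log2 scale (adjusted p = 0.000726, edgeR). The change in T-47D cells minus that in Ishikawa cells was 1.06 ± 0.14 after 2 h, 1.72 ± 0.14 after 4 h and 1.40 ± 0.14 after 8 h (adjusted p = 3.90e-05, 9.33e-08 and 9.01e-07, edgeR interaction), and each of these calls held under all 22 or 23 alternatives. At 8 h BMF still stood at 23.9 CPM in T-47D cells, above its 0-h mean of 21.3 CPM in the Ishikawa line, a gap that was not tested.

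**Figure D3:**
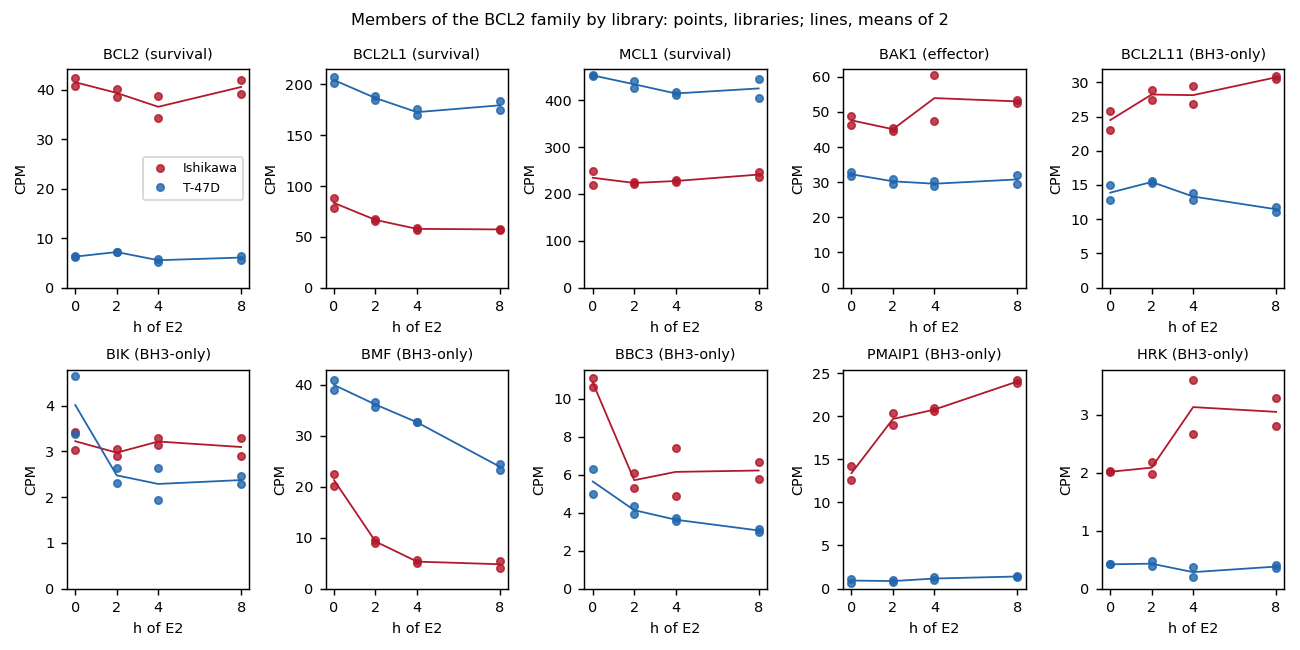
Level of each member in CPM (vertical axis from 0) against hours of E2, with 1 point per library and lines through the means of 2 (red, Ishikawa; blue, T-47D). BMF falls from a mean of 21.3 to 4.77 CPM in the Ishikawa line and from 40.0 to 23.9 CPM in T-47D, whereas PMAIP1 climbs from 13.4 to 24.0 CPM in Ishikawa cells.

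BBC3, which encodes PUMA, a p53-responsive binder of all survival proteins (chr19:47724079-47736023, minus strand), decreased in both lines. In Ishikawa cells its libraries held 10.6 and 11.1 CPM at 0 h, 5.31 and 6.10 after 2 h, 7.41 and 4.88 after 4 h, and 6.68 and 5.75 after 8 h. All treated libraries were below the 0-h pair and overlapped among themselves. Its log2 fold change was -0.92 ± 0.16 after 2 h, -0.82 ± 0.17 after 4 h and -0.80 ± 0.16 after 8 h (adjusted p = 0.00286, 0.0038 and 0.00283, edgeR), and -0.81 ± 0.13 with the late libraries pooled (0.000395). Without 0-h replicate 2 the 2-h and 4-h calls were lost (adjusted p = 0.0624 and 0.0534), as was the 2-h call without 2-h replicate 1 (0.0546).

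For BBC3 in T-47D cells, the libraries held 6.30 and 4.97 CPM at 0 h, 4.35 and 3.91 after 2 h, 3.54 and 3.71 after 4 h, and 2.97 and 3.14 after 8 h. Levels stepped down with time, and no treated library reached the 0-h pair. This gave log2 fold changes of -0.46 ± 0.15 after 2 h (adjusted p = 0.074, edgeR), -0.64 ± 0.15 after 4 h (0.0052) and -0.88 ± 0.16 after 8 h (0.000296). The 4-h call was lost without 0-h replicate 1 (adjusted p = 0.0781) and without 4-h replicate 1 (0.0509), and the 2-h change passed without 0-h replicate 2 (0.0364). The difference between lines was 0.47 ± 0.24, 0.18 ± 0.24 and -0.08 ± 0.24 at 2, 4 and 8 h, none of which passed (adjusted p = 0.542, 0.78 and 0.924, edgeR).

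PMAIP1, whose product NOXA binds MCL1 and promotes its degradation (chr18:57567228-57571537, plus strand), moved the other way. In Ishikawa cells the libraries held 14.2 and 12.6 CPM at 0 h, 20.4 and 19.0 after 2 h, 20.6 and 21.0 after 4 h, and 24.2 and 23.9 after 8 h. Each later time point was above the earlier one with no overlap, and PMAIP1 was the one member that passed as higher at all 3 times in this line. The log2 fold change was 0.56 ± 0.09 after 2 h, 0.64 ± 0.09 after 4 h and 0.84 ± 0.09 after 8 h (adjusted p = 0.00116, 0.000226 and 1.35e-05, edgeR). With the late libraries pooled it was 0.75 ± 0.09 (1.85e-05).

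In T-47D cells PMAIP1 was scarce, with 30 to 73 counts per library. The levels were 0.693 and 1.16 CPM at 0 h, 0.964 and 0.773 after 2 h, 0.974 and 1.35 after 4 h, and 1.50 and 1.31 after 8 h. The 8-h libraries lay above the 0-h pair, but at 0.60 ± 0.30 the change did not pass (adjusted p = 0.153, edgeR), and the values after 2 h and 4 h were -0.09 ± 0.32 and 0.31 ± 0.30. The line difference did not pass at any time (-0.63 ± 0.28, -0.32 ± 0.26 and -0.24 ± 0.26).

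BCL2L11 encodes BIM, an activator of the effectors and a known target of FOXO transcription factors (chr2:111876955-111926021, plus strand). In Ishikawa cells it went from 25.9 and 23.1 CPM at 0 h to 28.9 and 27.5 after 2 h, 29.4 and 26.8 after 4 h, and 30.9 and 30.6 after 8 h. In T-47D cells it went from 14.9 and 12.8 CPM to 15.3 and 15.6 after 2 h, 13.9 and 12.7 after 4 h, and 11.8 and 11.1 after 8 h. The 8-h libraries lay above both 0-h libraries in Ishikawa cells and below both in T-47D cells. At 8 h the log2 fold change was 0.33 ± 0.08 in Ishikawa cells (adjusted p = 0.0105, edgeR) and -0.28 ± 0.10 in T-47D cells (0.0376).

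The separate BCL2L11 calls were narrow. In Ishikawa cells the call was lost without 0-h replicate 2 (adjusted p = 0.0932) and without 8-h replicate 2 (0.0552), while the pooled late libraries gave 0.27 ± 0.07 (0.0142). In T-47D cells it was lost under 7 of 15 alternatives, among them DESeq2 (adjusted p = 0.0555) and the fit without 0-h replicate 1, where the value was -0.16 (0.345). The difference between lines after 8 h, -0.61 ± 0.13 (adjusted p = 0.00407, edgeR), passed under all 23 alternatives, with a highest adjusted p of 0.0405. It did not pass after 2 h or 4 h (-0.05 ± 0.13 and -0.26 ± 0.13). BCL2L11 shares 727 exonic bases with MIR4435-2HG on the opposite strand, and the strand setting of the counting is not given in the sources used here.

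BIK, a BH3-only protein of the endoplasmic reticulum (chr22:43506756-43525718, plus strand), had few counts in both lines. In T-47D cells it held 4.64 and 3.39 CPM at 0 h, 2.63 and 2.32 after 2 h, 2.63 and 1.94 after 4 h, and 2.46 and 2.29 after 8 h, from 96 to 201 counts. All treated libraries were below the 0-h pair, whose own members differed more than any treated pair. Relative to 0 h, the log2 change was -0.70 ± 0.20, -0.81 ± 0.20 and -0.76 ± 0.20 at 2, 4 and 8 h (adjusted p = 0.032, 0.00626 and 0.00714, edgeR). Without 0-h replicate 1 these became -0.45, -0.56 and -0.51 and none passed (adjusted p = 0.258, 0.0955 and 0.112). The 2-h call was also lost without either 2-h library (0.101 and 0.218), the 4-h call without 4-h replicate 2 (0.0811) and the 8-h call without 8-h replicate 2 (0.0546).

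In Ishikawa cells all BIK libraries fell between 2.89 and 3.43 CPM, with 0-h values of 3.02 and 3.43. No time point separated from 0 h there (log2 fold change -0.11 ± 0.18, 0.00 ± 0.18 and -0.06 ± 0.18). The line difference was -0.58 ± 0.28, -0.80 ± 0.28 and -0.70 ± 0.27 and did not pass at 2, 4 or 8 h (adjusted p = 0.479, 0.101 and 0.124, edgeR). With the 4 h and 8 h libraries pooled it was -0.75 ± 0.23 and passed (0.0427).

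HRK (chr12:117293949-117319246, minus strand) was the scarcest member. Its Ishikawa libraries held 2.02 and 2.01 CPM at 0 h, 2.19 and 1.98 after 2 h, 3.59 and 2.66 after 4 h, and 2.81 and 3.29 after 8 h. The late libraries all lay above the earlier ones, yet the changes of 0.64 ± 0.21 after 4 h and 0.59 ± 0.21 after 8 h missed the threshold (adjusted p = 0.0568 and 0.0571, edgeR). Pooled, the 4 late libraries gave 0.61 ± 0.18 (0.0194). In T-47D cells HRK had 10 to 23 counts per library, and no time point passed.

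Among the survival genes, BCL2L1 was the one that responded in both lines. In Ishikawa cells its libraries held 78.8 and 88.0 CPM at 0 h, 67.3 and 66.0 after 2 h, 59.1 and 56.5 after 4 h, and 57.7 and 56.9 after 8 h. The 0-h pair was above all others, and the 2-h pair above the late libraries. The log2 fold change was -0.32 ± 0.07, -0.52 ± 0.07 and -0.55 ± 0.07 (adjusted p = 0.0104, 8.50e-05 and 4.99e-05, edgeR), and -0.53 ± 0.06 over the pooled late libraries (3.93e-06). At 2 h the call was lost without 0-h replicate 2 (0.104) or either 2-h library (0.093 and 0.19).

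In T-47D cells BCL2L1 held 201 and 207 CPM at 0 h, 184 and 189 after 2 h, 170 and 176 after 4 h, and 184 and 175 after 8 h. The treated libraries were all below the 0-h pair, with changes of -0.14 ± 0.04 after 2 h (adjusted p = 0.0608, edgeR), -0.25 ± 0.04 after 4 h (0.00053) and -0.19 ± 0.04 after 8 h (0.00365). The 2-h change passed with DESeq2 (0.0424) and in a fit restricted to the 0-h and 2-h libraries (0.0468). The decrease was smaller than in Ishikawa cells by 0.29 ± 0.08 after 4 h (adjusted p = 0.0337, edgeR interaction) and by 0.35 ± 0.08 after 8 h (0.00499), and not distinguishably so after 2 h (0.19 ± 0.08, 0.335). The 4-h difference was lost under 13 of 23 alternatives, including RLE scaling (0.0753) and the replicate block (0.0553), while the 8-h difference passed under all 23. BCL2L1 shares 1735 exonic bases with the antisense gene ABALON, which itself had 232 to 370 counts per library in the Ishikawa line and 59 to 107 in T-47D.

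MCL1 passed at 1 time point, in T-47D cells. Its Ishikawa libraries ranged from 220 to 249 CPM and both extremes were 0-h libraries. In T-47D cells it held 452 and 455 CPM at 0 h, 426 and 442 after 2 h, 419 and 411 after 4 h, and 406 and 445 after 8 h. All treated T-47D libraries were below the 0-h pair, and the change of -0.13 ± 0.04 after 4 h passed (adjusted p = 0.0376, edgeR) but was lost when any 1 of 6 libraries (0 h, 2 h or 4 h) was left out (0.0604 to 0.201). Without 8-h replicate 2, the 8-h change passed instead (-0.15, 0.0116), whereas without 8-h replicate 1 it was -0.02 (0.729). MCL1 shares 328 exonic bases with ADAMTSL4-AS1 on the same strand and 43 with ADAMTSL4 on the opposite one.

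BCL2 did not pass at any time in either line. Its Ishikawa libraries held 42.2 and 40.7 CPM at 0 h, 38.5 and 40.1 after 2 h, 38.7 and 34.3 after 4 h, and 39.0 and 42.0 after 8 h, with overlap between 0 h and 8 h. In T-47D cells it held 6.33 and 6.19 CPM at 0 h, 7.24 and 7.12 after 2 h, 5.80 and 5.26 after 4 h, and 6.48 and 5.66 after 8 h. The log2 changes furthest from 0 were -0.18 ± 0.08 after 4 h in the Ishikawa line (adjusted p = 0.132, edgeR) and, in T-47D, 0.19 ± 0.12 after 2 h (0.392) and -0.18 ± 0.12 after 4 h (0.333).

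BAK1, the effector that sits in the outer mitochondrial membrane (chr6:33540324-33548070, minus strand), also did not pass at any time. In Ishikawa cells it held 46.4 and 48.8 CPM at 0 h, 45.6 and 44.6 after 2 h, 60.5 and 47.3 after 4 h, and 53.3 and 52.7 after 8 h. The 4-h pair spanned most of this range (log2 fold change 0.19 ± 0.09, adjusted p = 0.179, edgeR), and the value turned on 1 library: without 4-h replicate 2 the change was 0.35 and passed (0.0125), and without 4-h replicate 1 it was 0.00 (0.994). In T-47D cells all libraries lay between 28.9 and 32.8 CPM, and the changes were -0.10 ± 0.07, -0.13 ± 0.07 and -0.07 ± 0.07. Before E2 its level was 1.48-fold lower in T-47D cells (adjusted p = 5.26e-06, edgeR).

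Several genes within 250 kb of BAK1 had replicates that disagreed far more than BAK1 itself. The largest log2 gap between replicates was 2.38 for CUTA and 1.87 for KIFC1 in Ishikawa cells, against 0.35 for BAK1. In T-47D cells it was 2.22 and 1.87, against 0.12. ITPR3, UQCC2 and LEMD2 in the same window had gaps of at most 0.16. Whether what moved CUTA and KIFC1 bears on the BAK1 counts was not tested.

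The difference between the 2 lines in the E2 response was carried by few members. At 2 h 1 of 10 passed the interaction test (BMF) beside 2.67% of all genes, after 4 h 2 (BMF and BCL2L1) beside 6.03%, and after 8 h 3 (BMF, BCL2L1 and BCL2L11) beside 10.0%. BMF and BCL2L1 fell more in Ishikawa cells and BCL2L11 differed in direction.

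By class, BH3-only genes spread widely in Ishikawa cells and leaned downward in T-47D cells. At 8 h in Ishikawa cells, 4 of 6 BH3-only genes passed, 2 up and 2 down, with a median log2 fold change of 0.13, and 1 of 3 survival genes passed, with a median of -0.04. At 8 h in T-47D cells, 4 of 6 BH3-only genes fell with a median of -0.51, and 1 of 3 survival genes fell with a median of -0.09. The median over all genes tested was -0.01 for the Ishikawa line and 0.00 for T-47D. Of all genes tested at 8 h, 22.1% passed in the Ishikawa line. In T-47D 29.7% passed in either direction and 14.3% as lower. With 3 and 6 genes per class these are descriptions and were not tested.

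Summed levels per kilobase set the classes side by side. In Ishikawa cells, the 6 BH3-only transcripts together amounted to 34.2% and 34.0% of the summed survival transcripts at 0 h, 37.4% and 35.9% after 2 h, 38.9% and 37.8% after 4 h, and 39.3% and 40.1% after 8 h. In T-47D cells the share was 14.0% and 12.0% at 0 h, 11.9% and 11.2% after 2 h, 11.5% and 10.8% after 4 h, and 9.60% and 8.77% after 8 h. The 8-h libraries were above both 0-h libraries in Ishikawa cells and below both in T-47D cells. BMF made up 18.8% of the BH3-only sum at 0 h and 3.96% after 8 h in Ishikawa cells, but 46.4% and 42.9% in T-47D cells. Without BMF, the BH3-only sum was 16.9 RPKM at 0 h and 21.2 RPKM after 8 h in Ishikawa cells and 8.54 and 5.85 RPKM in T-47D cells. MCL1 was the bulk of the survival sum throughout, between 59.4% and 70.2% in single libraries. Transcript shares say nothing of protein amounts.

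**Figure D4:**
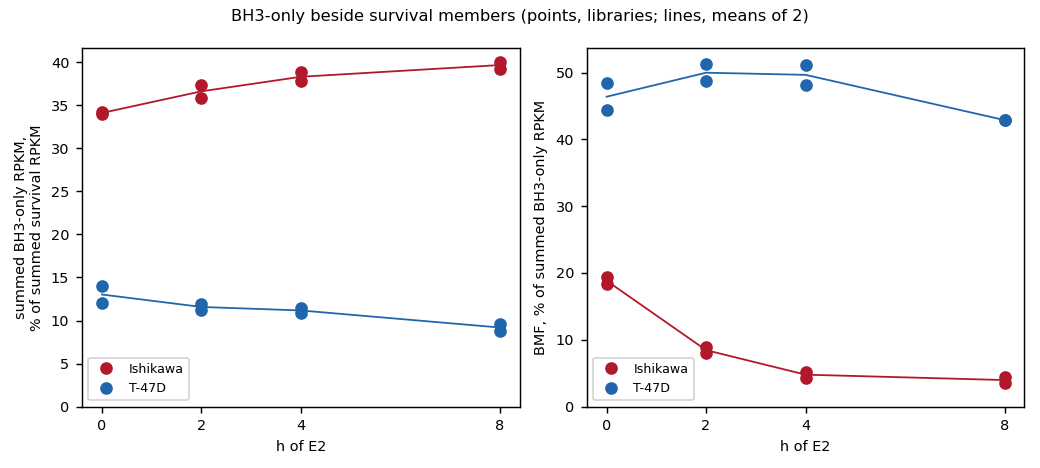
Left, summed level of the 6 BH3-only members as a percentage of that of the 3 survival members (both in RPKM) by hours of E2. Right, BMF as a percentage of the sum of the 6 BH3-only members. Other genes of these classes are not in the sums. Points are libraries and lines are means of 2 (red, Ishikawa; blue, T-47D). The left share goes from 34.1% to 39.7% for Ishikawa and from 13.0% to 9.18% for T-47D.

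Of 11 further family members, 9 were tested in the Ishikawa line and 7 in T-47D, and 2 passed at some time in each line. After 8 h alone, 1 of 9 passed in the Ishikawa line and 2 of 7 in T-47D, beside 22.1% and 29.7% of all genes tested. BOK, an effector related to BAK1, was lower after 8 h in Ishikawa cells (log2 fold change -0.29 ± 0.08, adjusted p = 0.0122, edgeR) and higher in T-47D cells (0.21 ± 0.06, 0.0103), and the difference of 0.50 ± 0.09 between the lines passed (0.0012). BID, a BH3-only protein cleaved by caspase-8, rose after 4 h in Ishikawa cells (0.28 ± 0.08, 0.0336), and BCL2L13 rose after 8 h in T-47D cells (0.15 ± 0.05, 0.0423).

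Downstream of the membrane, 6 of 16 genes passed at some time in the Ishikawa line and 7 in T-47D. After 8 h alone, 6 of 16 passed in each line, 4 up and 2 down in the Ishikawa line and 5 up and 1 down in T-47D, beside the same 22.1% and 29.7% of all genes. CYCS, which encodes cytochrome c, rose after 8 h by 0.53 ± 0.08 in the Ishikawa line and by 0.65 ± 0.06 in T-47D (adjusted p = 0.000188 and 3.44e-07, edgeR). CASP9, the initiator caspase it activates, fell by 0.57 ± 0.16 and by 0.56 ± 0.10 on the log2 scale (0.0166 and 0.000445). VDAC1, the main channel of the outer membrane, rose by 0.36 ± 0.07 and 0.18 ± 0.04. APAF1, the scaffold of the apoptosome, fell by 0.23 ± 0.07 in Ishikawa cells.

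Of 12 known regulators of BH3-only genes and of MCL1 turnover, 2 passed at some time in the Ishikawa line and 4 in T-47D. After 8 h alone the counts were 2 of 12 (1 up, 1 down) and 3 of 12 (1 up, 2 down), below those shares of all genes. E2F1, a cell-cycle factor that can activate BH3-only genes, was lower after 8 h in Ishikawa cells (-0.25 ± 0.07, adjusted p = 0.0175, edgeR) and higher in T-47D cells (0.63 ± 0.06, 2.45e-07), a difference of 0.88 ± 0.09 (1.86e-06). MDM2, the inhibitor of p53, rose after 8 h in Ishikawa cells (0.25 ± 0.06). In T-47D cells the stress-pathway genes TRIB3 after 2 h (-0.57 ± 0.06) and DDIT3 after 8 h (-0.28 ± 0.09) fell, and FOXO3 rose after 2 h (0.17 ± 0.05).

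The genes whose log2 CPM tracked BMF most closely over the 16 libraries, after the mean of each line was removed, were FGFR2 (Pearson r = 0.976), ASAP3 (0.969) and EZR (0.962) out of 17089. FGFR2 decreased by 1.27 on the log2 scale after 8 h in the Ishikawa line and by 0.43 in T-47D. PMAIP1 was tracked most closely by C2orf88 (0.878), CHDH (0.869) and FAM135A (0.856). The points share libraries and time course, so these values rank likeness only.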

How the data were processed

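Bulk RNA-seq of 16 libraries was analysed, and the single-cell data of the study were not analysed here. Per the labels and the study's methods, HISAT2 (genome hg19), SAMtools and featureCounts produced the deposited counts, 1 unnormalized table per cell line, which the authors tested with DESeq2. Versions, strand setting and read-pair handling are not given in the sources used here. From the deposited counts, genes were filtered with filterByExpr, scaled by TMM and fitted with the quasi-likelihood test of edgeR 4.0.16 in R 4.3.3, per line by time point, and over both lines for 0 h and the line differences. SE is the log2 fold change over the square root of F. CPM used TMM sizes over 16 libraries, and RPKM used exon lengths from GENCODE on GRCh37. Members, lists and tests were chosen with earlier results of these data known. All 10 members are named, with up to 4 genes per other list and line of lowest p, of which 1 result is not reported here. For likeness, the 2 members of lowest p were used with the 3 genes of highest r (log2 CPM with a prior count of 2). In simulated data in which 200 genes had a log2 change of 1, the step recovered 78.0% in the Ishikawa 8 h, 79.0% in the T-47D 8 h and 67.5% in the 8 h line-difference comparison. In the same order, 8.24%, 5.95% and 6.25% of the calls were false, each above the threshold of 0.05. Alternatives were DESeq2 1.42.0, omitting the filter, requiring at least 10 counts throughout, RLE scaling, a replicate block, only the time points compared, pooled 4 h and 8 h libraries, each library left out, and counts divided by 2. Replicate numbers did not pair the libraries (correlation of deviations -0.0838 to 0.0499), so no block was used. Replicates of every pair differed by more than sampling noise (chi-square per gene 3.70 to 11.4).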

Additional observations from a re-analysis of the deposited data

Results flagged for a closer look

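A total of 3 members responded differently to E2 in the 2 lines by the edgeR interaction test. Of all genes tested, 2.67%, 6.03% and 10.0% passed it at 2, 4 and 8 h. The BMF change, T-47D minus Ishikawa, differed by 1.06 ± 0.14 (SE) on the log2 scale at 2 h, 1.72 ± 0.14 at 4 h and 1.40 ± 0.14 at 8 h (adjusted p = 3.90e-05, 9.33e-08 and 9.01e-07). For BCL2L1 the difference was 0.29 ± 0.08 at 4 h and 0.35 ± 0.08 at 8 h (0.0337 and 0.00499). The 4-h call was lost under 13 of 23 alternatives. For BCL2L11 it was -0.61 ± 0.13 at 8 h (0.00407). Cell line and tissue cannot be told apart in this design.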

How the results depend on the processing

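Of 39 calls on members, 28 held under every alternative and 11 were lost under at least 1, and none reversed. The 9 calls between the lines at 0 h all held. Every lost call was therefore on an E2 change or on a line difference in it. With a library left out, the lone library of a time point is assumed to vary like the other groups. The number of members passing then ranged from 2 to 4 at 2 h for Ishikawa, and for T-47D from 0 to 2 at 2 h, 2 to 5 at 4 h and 3 to 5 at 8 h, and from 1 to 2 for the line difference at 4 h. Members passing at 2 h in T-47D cells were 2 with DESeq2 and 2 with only the time points compared. For the line difference at 4 h, 1 passed with RLE scaling, 1 with the replicate block and 4 with 4 h and 8 h pooled. The replicate block also moved BIK at 0 h to a call (0.48 for T-47D minus Ishikawa, adjusted p = 0.032, edgeR), took the call from BCL2L1 in that line difference (0.0553) and changed no other call.

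Some values changed sign, none of them a call. BIK in Ishikawa cells at 4 h was -0.0099 with no filter, -0.0071 with at least 10 counts, -0.0012 with counts divided by 2 (chosen after seeing the data, since even counts were 71.2% to 74.6% of counts from 1 to 10), -0.032 pooled and -0.0046 with only the time points compared. MCL1 at 4 h was 0.0020 pooled, and the BBC3 line difference at 8 h was 0.058 pooled. Ranges with a library left out, in Ishikawa cells, were -0.14 to 0.028 (MCL1, 2 h), -0.12 to 0.053 (MCL1, 4 h), -0.042 to 0.13 (MCL1, 8 h), -0.021 to 0.14 (HRK, 2 h), -0.087 to 0.10 (BIK, 4 h), -0.17 to 0.036 (BIK, 8 h) and -0.10 to 0.025 (BCL2, 8 h). In T-47D cells they were -0.41 to 0.33 (PMAIP1, 2 h), -0.014 to 0.73 (PMAIP1, 4 h), -0.11 to 0.17 (HRK, 2 h), -0.16 to 0.055 (BCL2L11, 4 h), -0.14 to 0.057 (BCL2, 8 h) and -0.13 to 0.00085 (BAK1, 8 h). For line differences they were -0.17 to 0.064 (BCL2L11, 2 h), -0.10 to 0.49 (BBC3, 4 h), -0.24 to 0.10 (BBC3, 8 h), -0.65 to 0.091 (PMAIP1, 4 h) and -0.57 to 0.17 (PMAIP1, 8 h). The cause was not tested. HRK and PMAIP1 had few counts in T-47D cells, and whether depth bears on their ranges was not tested.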
